A study of Mus musculus with 42 samples.

Results

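Dividing tissue-resident NK cells (trNK) were 1079 of the 15175 cells in the single-cell count files of the mouse uterus. They were chosen by the raw count of unique molecular identifiers (UMIs, 1 for each captured RNA molecule): at least 5 UMIs of Mki67, Top2a, Birc5, Ube2c and Ccna2 together, at least 1 of Itga1 (the CD49a chain), at least 1 of Ncr1, Klrb1c and Eomes together, 0 of Cd3e and Cd79a, at most 2 of the 3 C1q genes, and under 10% of UMIs from mitochondrial genes. Of all cells, 13084 passed the mitochondrial limit, and the members made up 8.25% of these (95% interval 7.78 to 8.73). Dropping the requirement for division genes left 5201 trNK, of which the members were 20.7%. They were compared with the 2334 trNK that held 0 UMIs of the 5 division genes, called non-dividing here, and 1788 trNK with 1 to 4 such UMIs lay between. Intervals given for cells are exact 95% intervals and take in counting error alone.

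The study followed NK cells of the uterus through decidualization, the remodelling of the uterine lining in early pregnancy, in wild-type C57BL/6 females of 8 to 12 weeks. For the single cells, live CD45+NK1.1+NKp46+ lymphocytes were sorted from 5 pooled virgin uteri and from 2 pooled uteri at gestation day (gd) 8.5, tagged and run together on the BD Rhapsody platform. The bulk RNA-seq libraries used here, 2 per group, hold CD45+NK1.1+NKp46+CD49a+CXCR6- trNK of virgin, gd6.5 and gd8.5 females and, at gd8.5, subsets of these cells low, intermediate or high for both CD55 and 4-1BB, which the study names trNK-V, trNK-D and trNK-T.

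One of the single-cell files is labelled virgin and the other gd8.5, but both list the same 15175 cells, they share 0 genes, and neither carries a tag that assigns a cell to virgin or gd8.5. Joined by cell number, they held 83499186 UMIs over 35237 genes. All cells were therefore treated as 1 pooled sample. Dividing cells of virgin and pregnant females cannot be told apart, and no test was made between groups of cells: the levels in cells below are descriptions of this pool. The sorting gate was NK1.1+NKp46+, and the 216 B cells used as a reference (at least 3 UMIs of Cd79a, none of Ncr1, Klrb1c or Eomes) passed through it too.

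A dividing cell first copies its DNA in S phase and then separates the copies in mitosis. In S phase the MCM helicase, loaded at origins, opens the double helix for the DNA polymerases, and new nucleotides and histones are made. Before mitosis a later wave of genes is switched on for cyclin B, the mitotic kinases, the kinetochore and the spindle. Uterine trNK are known to proliferate when the decidua forms, and as NK cells they carry perforin and granzymes in their granules.

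The 5 division genes chose the cells, so their values describe the selection. The summed division count had a median of 15 UMIs per member, quartiles of 8 and 31 and a maximum of 140. Top2a, the topoisomerase that untangles DNA, had a median of 5 UMIs per cell. Mki67, the Ki-67 antigen, and Birc5, the survivin subunit of the chromosomal passenger complex, each had a median of 3, and Ube2c, a ubiquitin-conjugating enzyme of mitosis, and Ccna2, cyclin A2, each had a median of 2. Just inside the limit, the 103 cells with 5 division UMIs had medians of 42 UMIs of DNA replication genes and 21 of mitosis genes, both lists without the division genes. Just outside it, the 143 cells with 4 had 34 and 20, so the limit lies within a gradual range.

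The members were deep cells. Their median was 12338 UMIs (quartiles 8382.5 and 18087, range 625 to 49541) and 3527 genes per cell, against 5641 UMIs and 2100 genes in non-dividing trNK. A threshold in raw UMIs is passed more easily by deep cells, and how much of the depth gap comes from division and how much from the threshold cannot be told apart. The median mitochondrial share was 2.99% in members and 3.27% in non-dividing trNK. The study's stated limits of 200 to 2500 UMIs per cell would have kept 13 members, and the same limits on genes per cell 168. The doublet caller Scrublet marked 0 of the 13084 cells and so did not work on these data, and doublets were not removed.

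NK identity outside the rule was present. All 11 NK and trNK marker genes had UMIs in the members, and together they reached 18570 CPM (UMIs summed over the cells of a group and scaled to the same total, as are all levels in cells below) in members, 22580 CPM in non-dividing trNK and 1976 CPM in the B cells. Among markers of other cell types, Cd8a of cytotoxic T cells and Krt8 of epithelium were at 0. Epcam, also of epithelium, was present, with 332, 515 and 72 UMIs in members of the Scin, Epas1 and Ctsg, granzyme and rest strata described below. The conventional NK list stood at 107 CPM in members and 165 in non-dividing trNK, and the T cell list at 730 and 898, of which 5131 of the members' UMIs were of Trbc1. The B cell list stood at 264 against 356 CPM, and the macrophage list at 63.9 against 85.9. For the neutrophil and monocyte list the values were 588 and 941 CPM, where Ccr2 held 8108 of the members' UMIs. For the stromal list they were 483 and 615, where Pecam1 held 5105. The erythroid list stood at 249 and 281 CPM, the ILC1 list at 40.3 and 84.7 and the mast cell list at 21.4 and 29.2. Each of these summed levels was thus lower in members than in non-dividing trNK, while single members held up to 984 erythroid, 512 stromal, 185 B cell and 80 macrophage UMIs.

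Of 61 markers of other lineages, 42 lay under 20 CPM in non-dividing trNK, and 254 members (23.5%) held at least 2 UMIs of these, against 379 non-dividing trNK (16.2%). This share was not corrected for depth, and its part in the results below was measured only by leaving such cells out.

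Genes of DNA replication and mitosis set the members apart by the largest ratios. Levels were compared as the ratio of CPM in members to CPM in non-dividing trNK over 9933 genes with at least 100 UMIs in both groups together, without the genes of the rule. At least 2-fold higher were 496 genes, 4.99% of those compared, and at least 2-fold lower were 214, 2.15%, with a median log2 ratio of 0.02. By the mean of per-cell CPM over the same genes, which weights shallow cells equally, 530 were higher and 481 lower, so the balance of higher and lower genes depended on this scaling. Since the rule selected on correlated genes of the same cells, these counts have no test. The 69 replication genes compared had a median log2 ratio of 2.26, and 64 of them were at least 2-fold higher. Their summed level was 7006 CPM in members and 1742 in non-dividing trNK, a 4.02-fold difference (3.97 to 4.08). The 77 mitosis genes, with a median log2 ratio of 4.12, were at least 2-fold higher in 74 cases and summed to 5885 against 868 CPM, 6.78-fold (6.66 to 6.90). No gene of either list was at least 2-fold lower. Without cells holding 2 or more UMIs of the low other-lineage markers, 825 members and 1955 non-dividing trNK remained, and 461 genes were higher, 181 lower, 63 of the replication and 74 of the mitosis genes among the former.

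**Figure D1:**
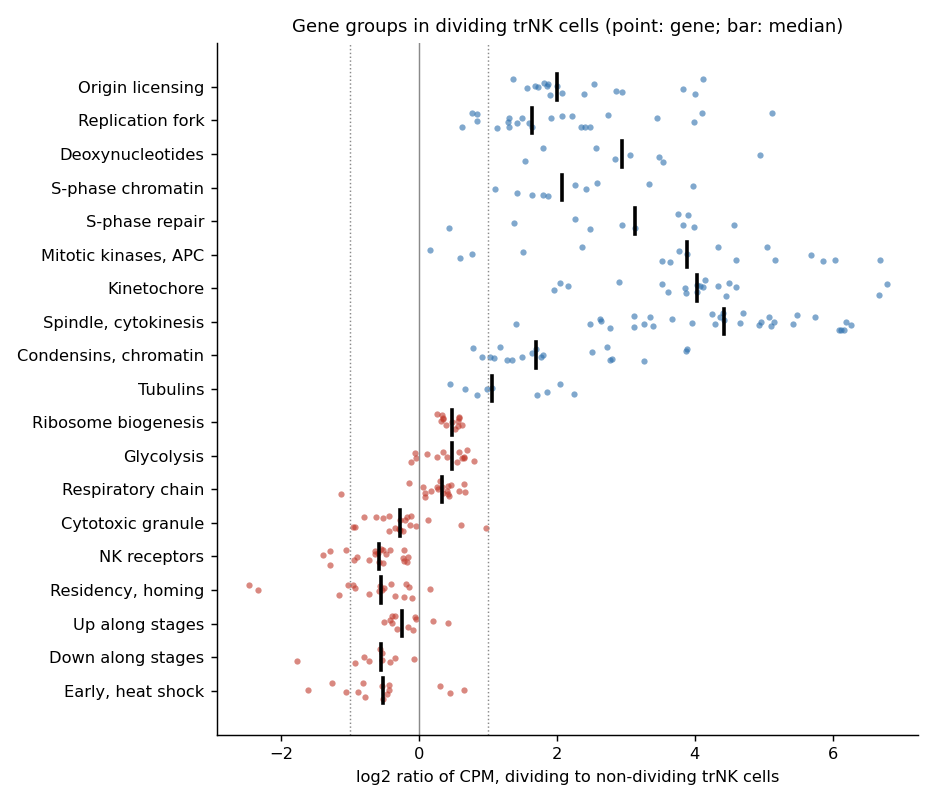
Log2 ratio of level in dividing to non-dividing trNK (horizontal axis) for every gene compared, 1 point per gene, in 19 gene groups (rows), with a bar at each group's median and dotted lines at 2-fold. The replication and mitosis groups lie to the right, with medians from 1.63 to 4.42, and the receptor, residency and immediate early groups lie mostly to the left of 0.

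Among the replication genes, all 17 of origin licensing and the helicase were at least 2-fold higher. Mcm5, a helicase subunit, stood at 202 CPM in members, 67.2 in trNK with 1 to 4 division UMIs and 38.6 in non-dividing trNK, 5.24-fold (4.80 to 5.72). The other subunits ranged from a log2 ratio of 1.37 for Mcm6 to 2.54 for Mcm7. Of the factors that load or start the helicase, some had larger ratios, with log2 values of 4.12 for Mcm10, 4.01 for Cdc45 and 3.84 for Cdc6. Cdt1, which also loads it, lay below Mcm7. Geminin, encoded by Gmnn and an inhibitor of licensing, had a log2 ratio of 1.86 beside 1.81 for its target Cdt1.

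Fork genes were at least 2-fold higher in 19 of 23 cases. Pclaf, a PCNA-associated factor, reached 786 CPM in members, 77.8 in the intermediate cells and 22.6 in non-dividing trNK, 34.8-fold (31.3 to 38.8). Pcna itself, the sliding clamp, was 2.48-fold higher (2.38 to 2.58), with 217 CPM already present in non-dividing trNK. The 4 below 2-fold were Pold3, Rpa1, Rfc2 and Rpa2, with log2 ratios of 0.85, 0.84, 0.77 and 0.62. All 8 genes of deoxynucleotide supply passed 2-fold, from 1.53 for Dctpp1 to 4.94 for Rrm2, the regulated subunit of ribonucleotide reductase, at 305.5 against 9.94 CPM. Thymidylate synthase (Tyms) stood at 110 against 15.4 CPM. All 10 genes of chromatin copying did so too, among them Uhrf1, which guides maintenance DNA methylation, at 127 against 12.7 CPM. In the repair list 10 of 11 were higher, led by Fancd2 with a log2 ratio of 4.57.

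Many mitosis genes had few UMIs in non-dividing trNK, which the rule itself defines by 0 UMIs of genes of this kind. Plk1, the polo-like kinase of mitosis, had 933 UMIs in members and 15 in the larger group of non-dividing trNK, a 65.9-fold difference in CPM (39.7 to 118). In the intermediate cells it stood at 1.38 CPM, against 62.5 in members and 0.95 in non-dividing trNK. Ccnb1, cyclin B1, stood at 66.9 against 1.58 CPM, 42.3-fold (28.5 to 65.6), and Cdk1, its kinase partner, at 147 against 8.48 CPM. All 32 spindle and cytokinesis genes and all 19 kinetochore genes were at least 2-fold higher, and their summed levels were 13.5-fold (13.0 to 14.1) and 7.76-fold (7.45 to 8.07) higher. The microtubule-bundling Nusap1 was 53.9-fold higher (38.6 to 77.6), and the motor Kif11 21.3-fold (16.2 to 28.4). At the kinetochore Nuf2 had 963 against 10 UMIs and Ska1 312 against 3, the latter a ratio of 110 with a counting interval from 37.3 to 537. Among mitotic kinases and checkpoint genes, 14 of 17 passed 2-fold, and Pttg1 (securin), Bub3 and Fzr1 did not, at log2 ratios of 0.16, 0.59 and 0.76.

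Of the 15 highest ratios among genes with at least 20 CPM in 1 of the groups, 13 belonged to lists of cell cycle genes. The list-free 2 were Esco2, the cohesin acetyltransferase of S phase, with 443 against 5 UMIs (log2 ratio 6.55), and Cep55, which acts in the final cut between daughter cells, with 622 against 10 (6.04). The others were Ska1, Nek2, Nuf2, Aspm, Kif4, Kif2c, Hmmr, Pimreg, Plk1, Bub1, Nusap1, Pbk and E2f8, with log2 ratios from 5.52 for E2f8 to 6.78 for Ska1. Of all 496 genes that were at least 2-fold higher, 180 belonged to the cell cycle lists.

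Promoter sequence was read for the genes that stood higher together. In vertebrates, promoters of mitosis genes often carry the CCAAT box, bound by the factor NF-Y. The 250 bases before the start of transcription were searched (RefSeq, GRCm38.p6). CCAAT on either strand was found for 48 of 65 mitosis genes (73.8%), 31 of 55 replication genes (56.4%) and 37.5% of all 27025 genes with a listed promoter. A gene with several listed promoters was scored by the one with most matches, so promoters counted here and below stand for genes. At least 2 boxes were found in 43.1%, 36.4% and 11.5% of them. Among cytotoxic genes 2 of 19 promoters held the box, and among NK receptor genes 5 of 16. The E2F letters TTCCCGC or TTGGCGC were in 29.1% of replication, 15.4% of mitosis and 6.45% of all promoters. TTTGAA, the core of the cell cycle homology region, was in 14.5% of replication, 32.3% of mitosis and 18.3% of all promoters. It was in 6 of 16 NK receptor (37.5%) and 4 of 19 cytotoxic promoters (21.1%). Its share thus lay above that of all promoters in the mitosis list and below it in the replication list. The few receptor promoters lay above it too. These are matches of letters and not bound sites. Shown next are 6 promoters, those with most CCAAT boxes in each of the 2 lists. They were chosen among higher genes with a single listed promoter, leaving out 1 chromosome, and ties went to the larger ratio. Each runs 5′ to 3′ on the strand of the gene, up to the base before the start. CCAAT and its reverse complement ATTGG are in capitals. The mitosis genes are Hmmr, a spindle protein, at chr11:40733438-40733687 (minus strand), Cks1b, a CDK subunit, at chr3:89418292-89418541 (minus) and Aspm, a spindle pole protein, at chr1:139454523-139454772 (plus).
Hmmr: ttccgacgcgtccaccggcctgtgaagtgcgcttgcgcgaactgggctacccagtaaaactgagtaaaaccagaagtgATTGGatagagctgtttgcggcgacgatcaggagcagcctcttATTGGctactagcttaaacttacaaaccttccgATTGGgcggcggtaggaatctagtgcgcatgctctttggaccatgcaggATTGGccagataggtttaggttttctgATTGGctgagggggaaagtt
Cks1b: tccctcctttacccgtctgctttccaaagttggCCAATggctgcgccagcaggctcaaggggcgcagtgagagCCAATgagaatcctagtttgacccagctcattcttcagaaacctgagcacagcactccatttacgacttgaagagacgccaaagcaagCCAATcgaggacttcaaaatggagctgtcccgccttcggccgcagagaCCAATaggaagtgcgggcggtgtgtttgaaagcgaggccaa
Aspm: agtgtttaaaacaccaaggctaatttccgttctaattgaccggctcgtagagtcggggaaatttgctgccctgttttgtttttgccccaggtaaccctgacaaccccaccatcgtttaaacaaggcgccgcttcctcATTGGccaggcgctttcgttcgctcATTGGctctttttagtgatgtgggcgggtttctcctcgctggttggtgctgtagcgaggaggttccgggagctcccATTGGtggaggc
The replication genes are Asf1b, a histone chaperone, at chr8:83955444-83955693 (plus), Mcm3, a helicase subunit, at chr1:20820313-20820562 (minus) and Ezh2, a histone methyltransferase, at chr6:47595031-47595280 (minus).
Asf1b: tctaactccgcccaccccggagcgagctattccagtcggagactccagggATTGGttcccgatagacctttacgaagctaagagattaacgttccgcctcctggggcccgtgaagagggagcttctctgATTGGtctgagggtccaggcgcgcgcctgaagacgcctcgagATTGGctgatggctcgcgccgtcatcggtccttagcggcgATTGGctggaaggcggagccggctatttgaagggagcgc
Mcm3: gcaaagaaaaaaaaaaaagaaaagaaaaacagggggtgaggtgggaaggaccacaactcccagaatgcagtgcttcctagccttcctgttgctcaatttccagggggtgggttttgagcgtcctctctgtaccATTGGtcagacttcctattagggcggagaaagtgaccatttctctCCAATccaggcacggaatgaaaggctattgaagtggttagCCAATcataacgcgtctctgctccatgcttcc
Ezh2: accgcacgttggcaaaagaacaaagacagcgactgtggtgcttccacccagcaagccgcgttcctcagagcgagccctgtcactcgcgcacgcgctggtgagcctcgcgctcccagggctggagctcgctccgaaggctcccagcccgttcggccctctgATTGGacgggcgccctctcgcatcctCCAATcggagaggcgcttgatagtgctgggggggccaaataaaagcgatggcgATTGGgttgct
Hmmr held 5 boxes, between 172 and 20 bases before the start, Cks1b and Asf1b held 4 each, and the other genes 3. In members Hmmr stood at 92.4 CPM against 1.33 in non-dividing trNK, Cks1b at 230 against 30.6 and Aspm at 29.2 against 0.38. Asf1b stood at 93.7 against 5.95 CPM, Mcm3 at 124 against 29.6 and Ezh2 at 191 against 52.2. Aspm with 3 boxes had 76.8-fold and Cks1b with 4 had 7.52-fold. Since ties in box number went to the larger ratio, these 6 cannot show whether the ratio follows the boxes.

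The upstream cell cycle regulators were uneven. The D cyclins and their kinases act in G1, and log2 ratios were 0.10 for Ccnd1, -0.12 for Ccnd3 and -0.28 for Ccnd2, 0.11 for the kinase Cdk6 and 0.94 for the kinase Cdk4. The E cyclins of the G1 to S transition, Ccne1 and Ccne2, were 4.78-fold (4.01 to 5.73) and 5.67-fold (4.39 to 7.41) higher. Among transcription factors 9 of 12 passed 2-fold, led by the repressors E2f7 and E2f8 at log2 ratios of 5.84 and 5.52 and followed by Mybl2 at 3.70 and Foxm1 at 3.54, both activators of mitosis genes. Myc stood at 104 CPM in members and 107 in non-dividing trNK, and Myb at 76.3 and 69.6. Of the CDK inhibitors and antiproliferative genes, 2 of 10 passed 2-fold: Cdkn3, a phosphatase of CDKs, at 3.85, and Rbl1, the p107 pocket protein, at 1.15. Cdkn1b (p27) had a log2 ratio of -0.65 and the antiproliferative Btg1 and Btg2 had -0.92 and -0.77.

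Chromosome structure genes followed the cycle too, with 17 of 19 at least 2-fold higher. Hmgb2, a DNA-bending protein abundant in cycling cells, was at 1325 against 194 CPM, and the condensin subunit Ncapg at 85.0 against 5.76. Tubulins were higher in all 9 cases, 5 past 2-fold, with Tuba1b at 1364 against 286 CPM and Tubb5 at 1068 against 259. Histone genes, whose S phase transcripts mostly lack a poly(A) tail, were at least 2-fold higher in 6 of 8 cases, at low levels such as 12.7 against 0.51 CPM for Hist1h1b. Tubulin and histone genes are close in sequence within their families, so reads could have been divided between members and single values are uncertain.

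All 13 genes of ribosome biogenesis had log2 ratios above 0, none past 2-fold, with a median of 0.49; the nucleolar protein nucleophosmin (Npm1) stood at 2712 against 1837 CPM. Glycolysis genes were above 0 in 11 of 14 cases with a median of 0.48, led by Ldha, lactate dehydrogenase A, at 989 against 569 CPM. Respiratory chain genes had a median of 0.33, and 1 of 19, the muscle-type subunit Cox6a2, was at least 2-fold lower. Cytosolic ribosomal protein genes lay slightly below, with a median of -0.15 over 77 genes and 9 above 0. In the survival list none of 13 genes passed 2-fold.

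Cytotoxic genes remained abundant in the dividing cells. The 20 genes of the list summed to 47360 CPM in members and 62940 in non-dividing trNK, none passed 2-fold, and 3 had a ratio above 1. Granzyme B (Gzmb) stood at 8733 against 9422 CPM, perforin (Prf1) at 1502 against 1765 and Gzma at 2371 against 2164. Larger were the differences of Gzmf, at 7636 against 14820 CPM (log2 -0.96), and Gzmd, at 9515 against 12860 (-0.44). Gzmd to Gzmg are close in sequence and reads could have been divided between them. Of 12 genes listed here for later trNK stages, some of which the study follows and some of which were added here, none passed 2-fold, with Il2ra, the IL-2 receptor alpha chain, highest at 0.42 and Spp1, osteopontin, lowest at -0.50.

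NK receptors and adaptors were lower in all 21 cases, 4 of them past 2-fold. These were Cd7 at 173 against 456 CPM, the inhibitory or activating lectin receptor genes Klra8 at 357 against 872.5 and Klrb1a at 15.1 against 36.8, and Hcst, the DAP10 adaptor, at 63.3 against 132. Tyrobp, the DAP12 adaptor, stood at 1389 against 2588 CPM, while Klrk1, the NKG2D receptor, differed little at 208 against 234. Klra genes are near-identical paralogs and their single values are uncertain. The direction for receptors was that of the pooled cells: within strata by stage genes, described below, 0 of 16, 3 of 21 and 8 of 21 were at least 2-fold lower in the Scin, Epas1 and Ctsg stratum, the granzyme stratum and the rest. In the first of these Klrk1 and Klri2 were higher in dividing cells, 1.42-fold (1.18 to 1.72) and 1.57-fold (1.26 to 1.95). Cytokine receptors and their signalling genes had a median of -0.37 with none of 22 past 2-fold: Il2rb, which binds IL-15, stood at 1623 against 1975 CPM. In the residency and homing list 4 of 18 were at least 2-fold lower, the chemokines Ccl5 and Ccl4, the ILC1 receptor Cxcr6 and Klf2, a factor of egress from tissue.

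The 15 lowest ratios, under the same limit of 20 CPM, were led by Ccl5, at 121 CPM in members, 253 in the intermediate cells and 668 in non-dividing trNK, 5.53-fold lower (5.26 to 5.82). In the Scin, Epas1 and Ctsg stratum described below Ccl5 turned direction, at 79.2 CPM in dividing and 51.4 in non-dividing cells. Itgam, Fos and Ifi213 turned there too, with counting intervals that included no difference. None of the 15 belonged to the cell cycle lists. Itgam (CD11b) stood at 10.1 against 34.4 CPM, Itgax (CD11c) at 85.9 against 255, and the surface gene Ly6c2 at 40.9 against 148. Ltb, lymphotoxin beta, stood at 7.57 against 26.6 CPM, and the inhibitory receptor Tigit at 14.6 against 42.3. Fos, of the immediate early genes, stood at 63.1 against 193, and in its list 3 of 14 were at least 2-fold lower, with Fosb and Egr1. The remaining genes were Tcp11l2, Trp53inp1, Ifi213, Ypel3, Calcoco1, Tsc22d1, Camk1d and the activin receptor Acvr2a, with log2 ratios from -2.40 to -1.52. B cells held Ly6c2, Ltb, Trp53inp1, Ifi213, Ypel3, Calcoco1, Tsc22d1, Fos, Camk1d and Tcp11l2 at levels above both trNK groups, for example 889 CPM for Ly6c2 and 329 for Ltb.

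Fewer genes passed 2-fold when depth was matched. With 3000 to 10000 UMIs per cell in both groups, 374 members and 1282 non-dividing trNK were left, and of 7890 genes compared 358 were at least 2-fold higher and 123 lower. With each cell thinned at random to 3000 UMIs, for 1064 members and 1757 non-dividing trNK, 333 of 7382 were higher and 104 lower. Depth, cells and genes compared differed together from the 496 and 214 of 9933. Of the named genes past 2-fold, 207 of 207 kept their direction in the first setting and 205 of 205 in the second. Both settings reuse UMIs of the cells in which these genes passed 2-fold, with members chosen at full depth. A kept direction was thus largely set in advance.

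Among the members, replication and mitosis transcripts varied along a continuous range. The mitosis share, mitosis UMIs over mitosis and replication UMIs in a cell, had a median of 45.5% with quartiles of 30.9 and 62.3 over the 1064 members that could be thinned to 3000 UMIs. Unthinned, over all 1079, it had a median of 44.9% and ran from 12% to 91.7%. Every member held UMIs of both lists, with medians of 81 replication and 65 mitosis UMIs. The share is a range along which no phase was assigned, since free RNA and counting error also enter it.

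**Figure D2:**
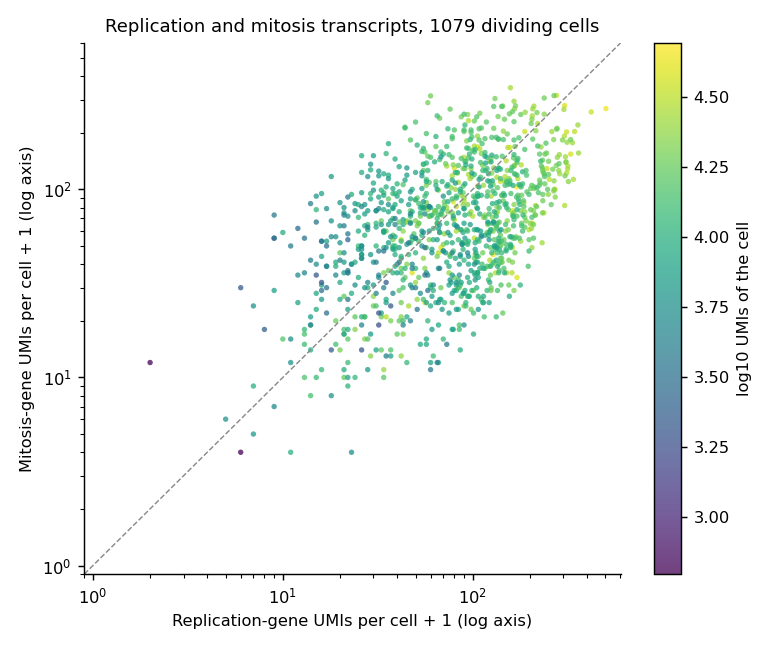
Replication UMIs plus 1 (horizontal axis) against mitosis UMIs plus 1 (vertical axis), both on log scales, for each of the 1079 members, coloured by the log10 of the cell's total UMIs, with a dashed line where the counts are equal. The points form 1 cloud without separate groups, around medians of 81 and 65 UMIs, and deeper cells lie higher on both axes.

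The 360 members with the lowest share (12 to 35.7%) and the 360 with the highest (56.0 to 91.7%) differed in genes that the share did not use. These members had median depths of 13297 and 10144 UMIs. Examples chosen after their values were seen follow, with no test. Higher at the low end, Ccne2 had 49.0 CPM in low-share and 5.52 in high-share members, 8.87-fold (5.79 to 14.2), E2f1 had 107 and 14.4, and Ccne1 had 75.2 and 11.5. Dtl, which marks replication factors for removal, stood at 88.0 against 16.8 CPM. Higher at the high end were Cdkn3 with 86.7 against 6.12 CPM, 14.2-fold higher (9.90 to 20.9), Gpsm2, which orients the spindle, with 33.1 against 2.41, and Cdkn2d (p19) with 58.4 against 14.5. Hmgb2 stood at 2134 against 740 CPM and Tubb4b at 468 against 200.

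The granule genes Gzmb, Gzmf and Prf1 were also followed along this range. Gzmb stood at 8386 CPM in low-share and 8497 in high-share members, and Gzmf at 8042 and 7051. Prf1 stood at 1680 and 1145 CPM and Npm1 at 3090 and 2141, both lower at the high-share end. Itga1, the CD49a gene of the rule, stood at 252 and 350 CPM.

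Dividing shares were compared between strata of trNK by granule and stage genes in thinned cells. Of the 5201 trNK, 4456 had 3000 UMIs or more, and after thinning a cell with at least 3 division UMIs counted as dividing. Cells with at least 2 UMIs of Scin, Epas1 and Ctsg, chosen here with earlier results of these data known, formed the first stratum, cells with at least 7 UMIs of Gzmc to Gzmg the second, and the rest the third. Both limits are the lowest whole numbers above the 99th percentile of B cells, which rests on the 16 of 216 B cells deep enough to thin. The dividing share was 13.7% of 885 cells in the Scin, Epas1 and Ctsg stratum (11.5 to 16.1), 15.3% of 2907 in the granzyme stratum (14.05 to 16.7) and 28.0% of 664 in the rest (24.6 to 31.6). None of the 16 B cells counted as dividing, which allows a share of up to 20.6%.

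The order of the strata changed with the settings. Their median depths were 11868, 9025 and 5956 UMIs. Under the unthinned rule, the same strata had dividing shares of 23.6%, 22.2% and 31.8%. With the strata also drawn on unthinned counts, and the granzyme limit set again from B cells at 24 UMIs in place of 7, the shares were 26.3%, 19.1% and 16.2%, the reverse order. Thinned to 2000 UMIs, with 2 division UMIs required and a granzyme limit of 24, they were 14.2%, 13.8% and 24.5%. The stratum without either gene set was thus highest in each setting but the one with strata drawn on unthinned counts. In that setting depth, the granzyme limit and the cells included changed together. The limit of 24 was also used at 2000 UMIs, where the rest was highest at 24.5%. The thinning behind the first strata left out 745 of the 5201 trNK as too shallow. Among those were 577 non-dividing trNK but 15 members. The part of this loss in the shares was not tested. Of the members that could be thinned, 19.6% fell in the Scin, Epas1 and Ctsg stratum, 60.5% in the granzyme stratum and 19.8% in the rest, against 18.2%, 66.9% and 14.9% of non-dividing trNK.

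**Figure D3:**
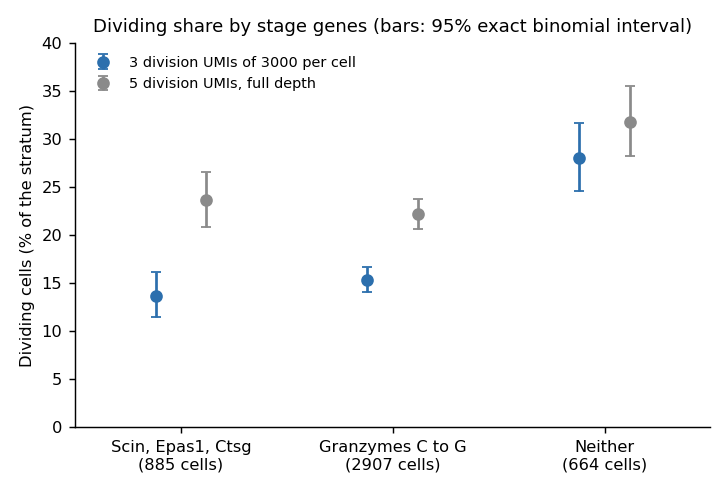
Dividing cells as a percent of cells (vertical axis) in the 3 strata of thinned trNK, by the thinned count (blue) and by the rule at full depth (grey), with exact 95% intervals as bars. The stratum without either gene set has the highest share by both counts, 28.0% and 31.8%.

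Dividing cells of each stratum were set against non-dividing cells of the same stratum, a comparison added after the data had been seen. Replication genes were at least 2-fold higher in 50 of 56 cases in the Scin, Epas1 and Ctsg stratum, 63 of 68 in the granzyme stratum and 50 of 54 in the rest, and mitosis genes in 49 of 52, 74 of 77 and 59 of 61. Of all genes compared, 306, 414 and 343 were at least 2-fold higher and 28, 100 and 202 at least 2-fold lower. The strata differed in genes compared, at 6602, 8957 and 5284, and in cells, at 209 dividing and 320 non-dividing cells, 644 and 1175, and 211 and 262.

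Ccl5 had opposite directions between strata. In the rest it stood at 283 CPM in dividing and 1452 in non-dividing cells, in the granzyme stratum at 97.5 and 265, and in the Scin, Epas1 and Ctsg stratum at 79.2 and 51.4, where its log2 ratio was 0.62. In that stratum Cd7, Itgam, Fos, Egr1, Ccl4 and Ifi213 also had ratios above 1, with log2 values of 0.27, 0.35, 0.20, 0.23, 0.47 and 0.13, against values below 0 in the other strata. For Cd7, Itgam, Fos, Egr1 and Ifi213 the counting interval of that ratio included 1. Erythroid genes moved between the strata as well: Hba-a1, a globin gene, stood at 119 against 10.9 CPM in the Scin, Epas1 and Ctsg stratum, 141.5 against 59.5 in the granzyme stratum and 14.1 against 960 in the rest. Hbb-bs stood at 85.8 against 13.2, 121 against 54.6 and 17.2 against 777 CPM, and the part of erythroid RNA in these ratios was not tested. Gzmf was lower in all strata, at 12010 against 23060 CPM, 7642 against 15430 and 233 against 284. Npm1 was higher in all of them, at 2942 against 2140, 2723 against 1878 and 2292 against 1477 CPM.

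**Figure D4:**
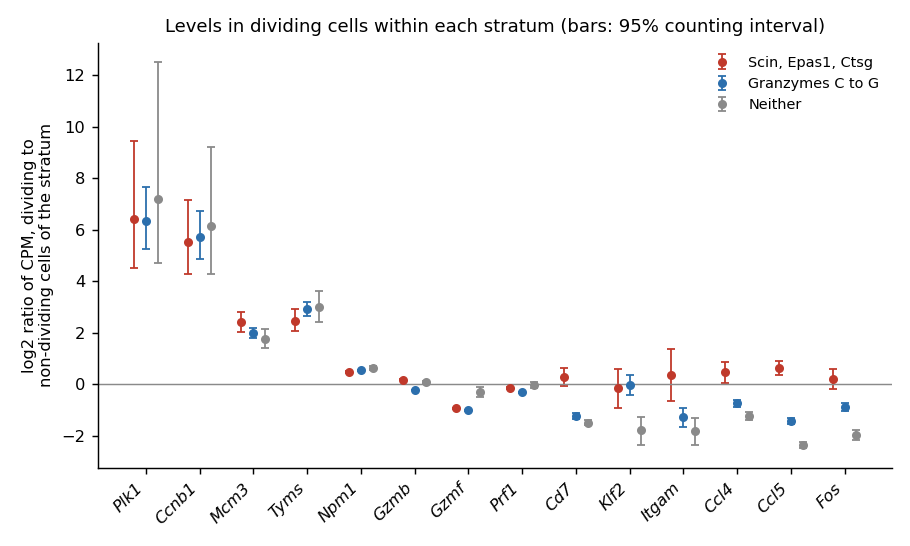
Log2 ratio of CPM in dividing to non-dividing cells (vertical axis) within each of the 3 strata (colours) for 14 genes (horizontal axis), with exact 95% counting intervals as bars. Cycle genes such as Plk1 and Mcm3 lie above 0 in each stratum, and Ccl5, Ccl4, Cd7, Itgam and Fos lie below 0 except in the Scin, Epas1 and Ctsg stratum.

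Dividing NK cells without an Itga1 UMI served as the nearest comparison. They numbered 512 of 4305 NK cells that met the other limits of the rule, with a median depth of 8211.5 UMIs, and shallow trNK can fall among them because 1 UMI of Itga1 is then easily missed. Unthinned, 20.7% of trNK and 11.9% of these cells were dividing. Thinned to 3000 UMIs with 3 division UMIs required, the shares were 16.9% of 4456 trNK (15.81 to 18.03) and 19.2% of the 2165 of 4305 such cells deep enough (17.57 to 20.94). The order was thus the reverse of the unthinned one. The difference between the thinned shares was not tested, and overlap of their intervals does not decide it. Over 9108 genes compared, 199 were at least 2-fold higher in the members (2.18%) and 41 lower (0.450%). None of the 69 replication and 77 mitosis genes was among them, with medians of -0.29 and -0.31. The same limit of 5 division UMIs chose both groups, so close levels of cycle genes were set by the selection. Shallower cells need a larger share of division UMIs to pass that limit. Top2a, a gene of the rule, stood at 585.5 CPM in members and 852 in the cells without Itga1. The part of depth in the medians was not tested. Cytotoxic genes were above 0 in 17 of 19 cases, 5 past 2-fold: Prf1 stood at 1502 against 696 CPM, Gzmf at 7636 against 3446 and Gzmd at 9515 against 4658. Ctla4, a checkpoint receptor chosen after its value was seen, stood at 62.7 against 17.3 CPM. The 3 erythroid genes compared were all at least 2-fold lower in members, with Hba-a1 at 117 against 510 CPM. Of other lineages, 2 of 4 stromal markers were at least 2-fold higher, and 1 of 3 B cell and 1 of 3 ILC1 markers lower. The part of these markers in the comparison was not tested.

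Bulk libraries, 2 per group, gave a further measure for genes chosen in part by their ratios in the cells. They sum over dividing and other trNK, so fewer dividing cells and less RNA per dividing cell cannot be told apart. The labels do not say whether the 2 libraries of a group came from different animals, and p-values then measure only the spread between these libraries. Totals ran from 11862089 to 22956216 reads. Of 165 genes, namely the division, replication and mitosis genes and the 50 highest ratios in cells, 91 of the gestation and 72 of the subset experiment passed the study's limit of 10 RPKM (read counts scaled to gene length and library total) in both libraries of any group. A gene could pass through a single group in which it was high, as Plk1, Bub1b and Uhrf1 did through gd6.5. Counts, medians and directions of the genes tested therefore lean toward genes high in a group compared. RPKM was computed here from the counts and the deposited gene lengths. The single-cell pool and the bulk libraries are different preparations.

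Of the genes of dividing trNK, some rose from virgin to gd6.5. By edgeR's quasi-likelihood test with Benjamini-Hochberg adjustment over all genes and a fold above 2, 17 of the 91 rose and none fell. Over all 4504 genes tested 143 rose (3.17%) and 135 fell (3.00%). The median log2 fold change of the 91 was 0.90 against -0.02 over all genes, 87 lay above 0, and for 81 the libraries of the 2 groups did not overlap, as for 2726 of all 4504. Of the replication genes 10 of 45 rose and of the mitosis genes 7 of 39. Genes that passed the RPKM limit through gd6.5 alone tilt these counts and the median toward a rise.

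Plk1 (ENSMUSG00000030867, chromosome 7, 122159439 to 122169873 on mm10) stood at 5.91 and 11.0 RPKM in virgin, then 74.6 and 41.3 in gd6.5 and 8.65 and 14.2 in gd8.5 trNK. The gd6.5 libraries lay above all others, and the log2 fold change against virgin was 2.70 (SE 0.47, adjusted p = 0.0311 from edgeR). Mcm2 (ENSMUSG00000002870, chromosome 6, 88883474 to 88898780) stood at 13.8 and 13.99, then 45.025 and 46.0, then 19.0 and 16.7 RPKM, a rise of 1.62 at gd6.5 (SE 0.15, adjusted p = 0.0187 from edgeR). Replicates lay close together for this helicase gene. Bub1b, a kinase of the spindle checkpoint, stood at 2.74 and 6.42, then 20.9 and 21.2, then 4.23 and 5.98 RPKM, with a log2 fold change of 2.12 (SE 0.43, adjusted p = 0.0380 from edgeR). Uhrf1 stood at 4.74 and 6.45 RPKM in virgin trNK, at 24.9 and 26.2 at gd6.5 and later at 9.74 and 5.78, and its rise was 2.11 (SE 0.31, adjusted p = 0.0288 from edgeR). Others that rose included Aurkb, Ccnb1, Cdc45, Cdca7, Ckap2l, Fzr1, Kif20a, Mcm3, Mcm4, Mcm5, Pold1 and Rrm1, by 1.06 to 2.07.

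None of the 4 division genes tested passed the threshold at gd6.5, although in all 4 both gd6.5 libraries lay above both virgin libraries. Libraries of gd6.5 and virgin trNK did not overlap for 2726 of all 4504 genes tested. Ccna2 stood at 13.6 and 13.1 RPKM in virgin, then 44.9 and 24.6, then 15.7 and 10.7 (log2 1.30, adjusted p = 0.0574 from edgeR). Birc5 stood at 16.4 and 37.5, then 64.7 and 48.3, then 37.2 and 44.0 RPKM. Top2a stood at 9.90 and 11.9, then 23.4 and 15.7, then 10.5 and 11.8, and Ube2c ranged from 4.03 and 23.7 in virgin trNK to 90.6 and 40.3, then 26.1 and 36.2. Mki67 did not pass the RPKM limit, at 4.44 and 8.70, 10.2 and 6.55, and 9.09 and 5.69 RPKM.

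The count of 17 moved with the number of calls over all genes, which was 143. Without virgin replicate 1 it was 22 (276 over all genes) and without virgin replicate 2 it was 51 (476). Without gd6.5 replicate 1, gd6.5 replicate 2, gd8.5 replicate 1 or gd8.5 replicate 2, and in a fit to the 4 libraries compared, edgeR called 0 of the set and 0 of all genes higher. DESeq2 gave 31 (226 over all genes) and limma-voom 26 (197).

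From gd6.5 to gd8.5 none of the 91 passed the threshold in either direction by edgeR, and neither did any of all 4504 genes (0% higher and 0% lower). At an unadjusted p under 0.05 edgeR gave 0 of the 91 higher and 31 lower, and 442 higher and 629 lower of all 4504. DESeq2 called 17 lower, among 172 over all genes, and limma-voom 0 of either. In a fit to only the libraries compared, edgeR also called 17 lower, among 185 over all genes. The median log2 fold change of the 91 was -0.63, and 6 lay above 0. This comparison uses the same gd6.5 libraries as the preceding one, so the 2 directions are not independent. Genes that passed the RPKM limit through gd6.5 alone tilt it toward a fall. Plk1 had a log2 fold change of -2.32 (SE 0.46, adjusted p = 0.0947 from edgeR) and Mcm2 of -1.33 (SE 0.15, adjusted p = 0.0919 from edgeR).

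The subsets of gd8.5 were compared next, trNK-T against trNK-V first. By edgeR 11 of 72 rose and none fell, against 378 of all 4682 genes that rose (8.07%) and 614 that fell (13.1%). The median log2 fold change of the 72 was 0.97 and 67 lay above 0, while none of the 17 tested genes among the 50 highest ratios in cells passed. Gins1 (ENSMUSG00000027454, chromosome 2, 150905400 to 150931280), part of the replicative helicase, stood at 1.62 and 0.42 RPKM in trNK-V, 10.5 and 13.8 in trNK-D and 10.2 and 13.3 in trNK-T, and rose by 3.52 in trNK-T (SE 0.63, adjusted p = 0.00926 from edgeR). Both trNK-V libraries lay apart from the other 4. Gins1 passed the RPKM limit only through trNK-D and trNK-T, and such genes tilt the counts toward a rise. Tyms stood at 8.65 and 10.5, then 14.9 and 28.5, then 28.2 and 26.7 RPKM, and rose by 1.53 (SE 0.32, adjusted p = 0.0147 from edgeR). Aurkb and Bub1b rose in this comparison, by 1.77 and 1.64, as at gd6.5, with Cenpm, Cks1b, Dctpp1, Dut, Incenp, Prim1 and Tipin beside them. The count was 29 without trNK-D replicate 1 (381 over all genes) and 26 without trNK-D replicate 2 (374). Without trNK-V replicate 1 it was 3 (434 over all genes), and without trNK-V replicate 2 it was 2 (235). It was 2 without trNK-T replicate 1 (303) and 0 without trNK-T replicate 2 (142).

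Against trNK-V, trNK-D gave 0 of 72 called in either direction by edgeR, with 12 of all 4682 genes higher (0.256%) and 3 lower (0.0641%). At an unadjusted p under 0.05, 15 of the 72 were higher and 1 lower, and 445 higher and 495 lower of all 4682. DESeq2 called 6 higher, among 95 over all genes, and limma-voom 0, among 17. The trNK-D libraries stood apart from each other in division genes. Ccna2 stood at 4.89 and 11.7 RPKM in trNK-V, 4.57 and 23.5 in trNK-D, and 17.6 and 28.8 in trNK-T. Ube2c stood at 17.6 and 30.0, then 5.51 and 70.9, then 31.4 and 75.1. For both genes trNK-D replicate 1 lay below and replicate 2 above both trNK-V libraries. The same trNK-V libraries serve both subset comparisons. Across the 3 subsets the libraries of trNK-T lay above those of trNK-V in all 4 division genes tested, by log2 fold changes of 1.02 for Birc5, 1.49 for Ccna2, 1.13 for Top2a and 1.16 for Ube2c, none past the threshold. Libraries of trNK-T and trNK-V did not overlap for 3503 of all 4682 genes tested.

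**Figure D5:**
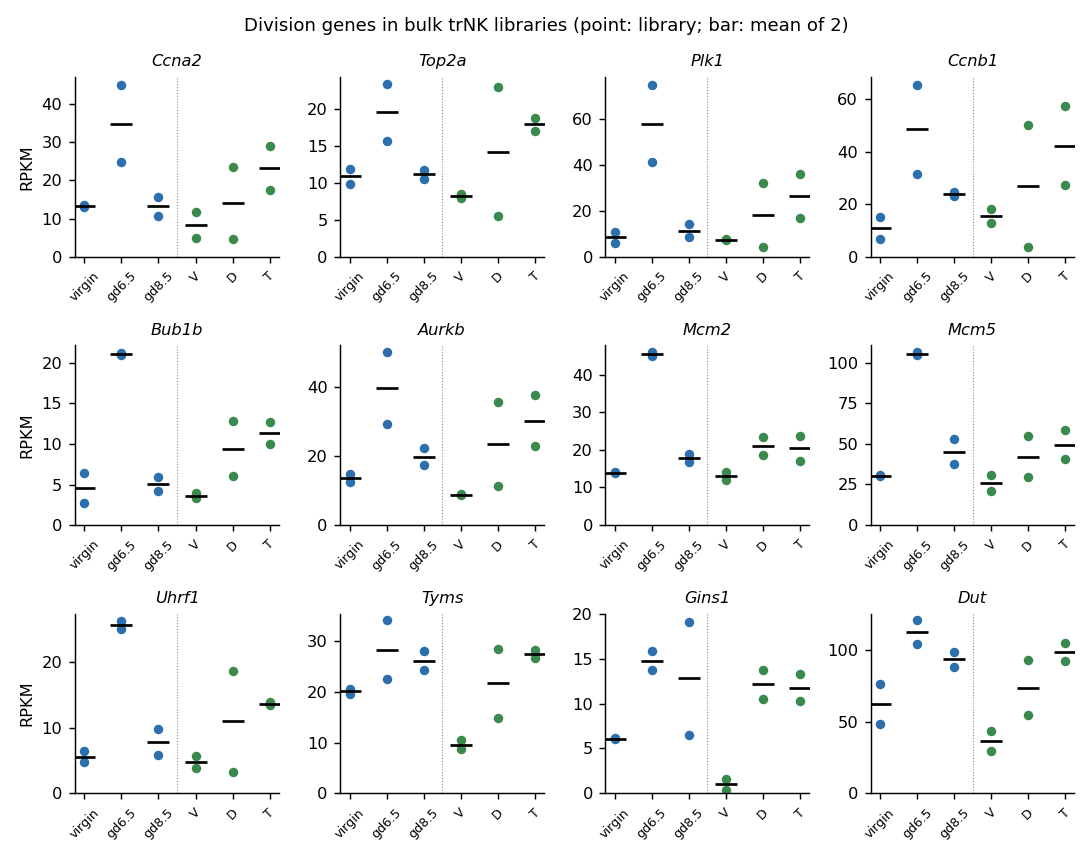
RPKM in each bulk library (vertical axes), 1 panel for each of 12 genes, with points for the 2 libraries of virgin, gd6.5 and gd8.5 trNK and of trNK-V, trNK-D and trNK-T (V, D and T) and a bar at their mean. In the panel of Plk1 the gd6.5 libraries, at 74.6 and 41.3, lie above every other library, and the trNK-D libraries differ from each other.

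Genes with the lowest ratios in dividing cells were followed in the same libraries. Of the 15, 8 were tested at gd6.5 against virgin and 1 fell, beside 3.00% of all genes: Ccl5 stood at 1618 and 1844 RPKM in virgin trNK, then 281 and 578, then 1052 and 842, a log2 change of -2.10 (SE 0.35, adjusted p = 0.0305 from edgeR). Both gd6.5 libraries lay below all others. In a fit to only the libraries compared, edgeR called 0 of all genes lower at gd6.5, so the call of Ccl5 was lost there. In trNK-T against trNK-V 8 of 11 tested fell, beside 13.1% of all genes. They were Ltb, by 6.63 on the log2 scale, Ifi213, Fos, Itgax, Ypel3, Trp53inp1, Tcp11l2 and Tigit. Ltb stood at 95.6 and 136 RPKM in trNK-V, 17.4 and 6.84 in trNK-D and 1.01 and 1.33 in trNK-T, lower in that order without overlap. It passed the RPKM limit only through trNK-V, and such genes tilt the count toward a fall. Ccl5 stood at 2530 and 4319, then 1976 and 490, then 404 and 9.66 RPKM, and did not pass the threshold in trNK-T (log2 -4.05, adjusted p = 0.0756 from edgeR).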

How the data were processed

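The authors deposited single-cell counts as UMI counts per cell and gene, without normalization, from the BD Rhapsody WTA pipeline 1.9.1 on GRCm39, and bulk read counts per gene without normalization on mm10. HISAT2 2.1.0, featureCounts and Subread are named in the submitters' processing notes; the methods name RSEM, whereas the bulk files have the layout featureCounts writes. The methods state limits of 200 to 2500 UMIs per cell, which were not applied here.

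Members and gene lists were chosen with earlier results of these data known. Named genes are the division genes, the genes of the lists, and the 15 highest and 15 lowest ratios among genes with at least 100 UMIs in both groups together and 20 CPM in 1 of them, without genes that have over 50% of a group's UMIs in 1 cell. Ratios carry exact conditional intervals. Thinning drew 3000 UMIs per cell with a fixed seed. Python 3.11.15 with numpy 2.4.6, pandas 2.3.3, scipy 1.17.1 and scanpy 1.11.5 was used for cells.

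Bulk counts were tested with edgeR 4.0.16 (quasi-likelihood, TMM) in R 4.3.3, with 6 libraries of an experiment in 1 fit, an adjusted p under 0.05 and a fold above 2, on genes over 10 RPKM in both libraries of any group. DESeq2 1.42.0 and limma 3.58.1 (voom) were alternatives. Replicate spread, as the biological coefficient of variation, was 0.254 for gestation and 0.248 for the subsets. On simulated counts with 200 genes changed 4-fold, edgeR recovered 93% for gd6.5 against virgin, 95% for gd8.5 against gd6.5, 93% for trNK-D against trNK-V and 87.5% for trNK-T against trNK-V, and on simulated cells 95.4% of the intervals held the true ratio. Simulated cells of a group shared 1 profile and 1 depth, so the latter covers counting error alone. The bulk counts used the spread fitted to these libraries, so they cannot show how calls hold when a library is left out. All groups shared 1 profile there apart from the 200 changed genes, unlike the real libraries. The recovered shares therefore do not measure how many real changes the fit would call. From gd6.5 to gd8.5 the real fit called 0 of 4504 genes. Culture and chromatin libraries were not used here. Some single genes of the lists are not reported here.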

Additional observations from a re-analysis of the deposited data

How the results depend on the processing

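The number of members was 1451 with at least 3 division UMIs, 842 with at least 8, 958 with a mitochondrial limit of 5%, 780 with 2 Itga1 UMIs, 13 with 200 to 2500 UMIs and 168 with 200 to 2500 genes per cell. Of the genes, 844 were at least 2-fold higher and 575 lower with a minimum of 20 UMIs, 123 lower in cells of 3000 to 10000 UMIs, 104 lower in thinned cells and 481 lower by the mean of per-cell CPM. Within strata, added after the data had been seen, 306 were higher and 28 lower in the Scin, Epas1 and Ctsg stratum, where 49 mitosis genes were higher, and 100 were lower in the granzyme stratum. In the former, 7 of 198 named genes past 2-fold turned direction, to log2 ratios of 0.47 for Ccl4, 0.62 for Ccl5, 0.27 for Cd7, 0.23 for Egr1, 0.20 for Fos, 0.13 for Ifi213 and 0.35 for Itgam; none did in the other strata or settings. Dividing shares were 26.3%, 19.1% and 16.2% unthinned and 13.8% and 24.5% in the granzyme stratum and the rest at 2000 UMIs, both with a granzyme limit of 24 in place of 7. Leaving out every cell with a UMI of any other-lineage marker left 4 members and was not run. In bulk, the 17 genes higher at gd6.5 became 31 with DESeq2, 26 with limma-voom, 0 with filterByExpr, 53 with no filter and 0 with only the libraries compared, and 0 to 51 when 1 library was left out. The 0 lower from gd6.5 to gd8.5 became 17 with DESeq2, 29 with no filter, 17 with only the libraries compared and 0 to 17 when 1 library was left out. The 0 higher in trNK-D became 6 with DESeq2 and 28 with no filter. The 11 higher in trNK-T became 17 with DESeq2, 5 with filterByExpr, 67 with no filter, 28 with only the libraries compared and 0 to 29 when 1 library was left out, where a lone library is assumed to vary like the other groups. The cause was not tested. With the replicate number as a block the counts were 0 at gd6.5 against virgin and 22 in trNK-T against trNK-V; no label says that a number is a shared animal, and differences between replicates correlated by -0.29 to 0.40 between groups, so the pairing is of numbers only. Upper quartile scaling and DESeq2 size factors in edgeR gave 16 and 17 at gd6.5 and 11 and 11 in trNK-T. Of 240 fold changes of the division genes under alternatives, 24 passed the threshold and 6 turned direction. None of those 6 passed the threshold in the main or the alternative fit.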
